A study of Mus musculus with 12 samples.

Results

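The genes described here are 30 genes of motile cilia and of epithelial surface and transport, measured by RNA-seq in the perigonadal white fat of mice, the visceral fat pad around the gonads. They are 30 of the 53379 genes in the count files. They were chosen by symbol, with their values in these libraries already known, as genes that were highest in the 3 saline-treated Cdk7 knockout libraries and in 1 saline-treated wild-type library. Their levels under saline and their differences between CL and saline therefore chose them and are given as a description, with no test. The 30 are 16 genes of the motile cilium and 14 genes of epithelial surface, adhesion, transport and metabolism. Each matched 1 gene of GENCODE M21, an annotation of the mouse genome GRCm38. All 30 passed the filter on low counts, which a gene can pass on 1 group alone: 23 reached its level in 3 libraries outside ko saline and 7 only with ko saline counted. Of the 30, 0 share exon bases with another gene on the same strand.

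Motile cilia are beating projections of the cell surface, built around a shaft of microtubule doublets called the axoneme. Dynein arms on the doublets drive the beat, radial spokes and the central pair regulate it, and tektins line the doublets. Cells with many such cilia line the airways, the brain ventricles, the oviduct and the efferent ducts that link testis and epididymis, where absorptive cells with a brush border of microvilli stand beside them. Adipocytes, the cells that fill white fat, are not known to carry motile cilia.

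The mice were C57BL/6, 9 weeks old, and carried either an adipose-tissue-specific knockout of Cdk7 (ko) or intact Cdk7 (control littermates, wt). Cdk7 is a kinase of the transcription factor TFIIH. Mice of each genotype were injected with CL or saline for 7 days, and the pads were collected at zeitgeber time 9. CL is given only by that abbreviation, which in this field stands for an agonist of the beta-3 adrenergic receptor. The 4 groups are ko CL, wt CL, ko saline and wt saline, with 3 libraries each. Each library pooled 250 ng of RNA from each of 2 mice to 500 ng, so the p-values weigh differences against the variation among such pools. The promoter that restricts the deletion to adipose tissue is not given in the sources used here, and Cdk7 in other cells of the pad is not described. Groups follow the sample titles, because the genotype entry in the labels follows the treatment and contradicts 6 of the 12 titles.

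Libraries held 21892817 to 27985019 counts in genes, and 16554 genes were tested. Cdk7 was at 23.6, 19.5 and 18.1 CPM (counts per 1000000, after TMM scaling of the library sizes) in ko CL and at 32.2, 30.4 and 35.4 CPM in wt CL. It was at 11.7 CPM or less in ko saline and at 29.3 CPM or more in wt saline, so both ko groups were below both wt groups. The fat label was checked on 8 adipocyte genes, whose summed level was 7219 to 11055 CPM in ko CL, 26834 to 29166 in wt CL, 14865 to 15969 in ko saline and 22227 to 24394 in wt saline. Ddx3y, a Y-linked gene, was at 111 to 178 CPM in the 12 libraries, and Xist, the RNA of the inactive X chromosome, was at 0.38 CPM or less. The library wt saline 1 stands apart from wt saline 2 and 3 in the 30 genes. Some counts of calls that rest on it are also given without it, while group means and fold changes include it unless stated.

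Together the 30 genes had a summed level of 31.8, 49 and 16.7 CPM in ko CL 1 to 3 and 16.3, 16.8 and 14.8 CPM in wt CL. Under saline the sum was 338, 438 and 301 CPM in ko and 156, 13.9 and 21.6 CPM in wt. The 3 ko saline libraries were the highest of the 12, wt saline 1 came next, and wt saline 2 and 3 lay among the CL libraries or below them. As a percentage of the ko saline mean, the sum was 8.87, 13.6 and 4.66 in ko CL, 4.55, 4.69 and 4.13 in wt CL, and 43.4, 3.87 and 6.01 in wt saline. In bulk tissue, fewer cells of a type and less RNA per cell cannot be told apart.

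**Figure D1:**
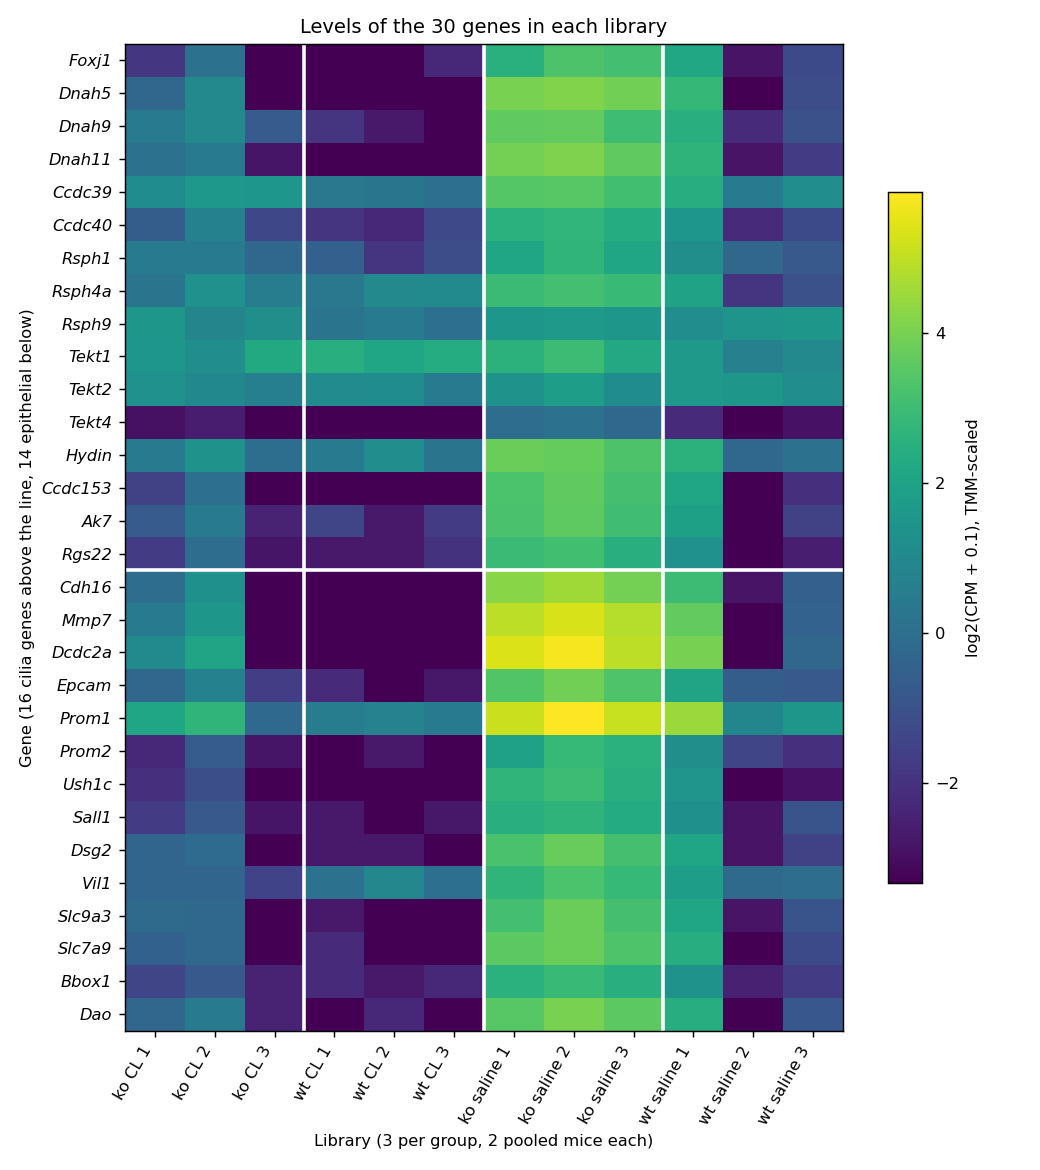
Levels of the 30 genes (down the page, 16 cilia genes above the white line and 14 epithelial genes below it) in the 12 libraries (across), coloured by log2(CPM + 0.1). Most genes are bright in ko saline 1 to 3, less bright in wt saline 1 and dark in the other 8 libraries, while Rsph9, Tekt1 and Tekt2 are of similar colour throughout.

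The same order held gene by gene. In 27 of the 30 genes all of ko saline 1 to 3 and wt saline 1 lay above all 8 other libraries, an order found in 5.26% of all genes tested; the choice of the genes used this order, so nothing is read from it. Rsph9, Tekt1 and Tekt2 were the 3 exceptions. Just inside this order, the lowest of the 4 libraries against the highest of the other 8 was 0.113 against 0.0668 CPM in Tekt4 and 3.84 against 2.44 CPM in Rsph4a; just outside it was 2.18 against 2.85 CPM in Rsph9. The library ko saline 2 was the highest of the 12 in 29 genes and ko saline 1 in 1 gene, Hydin. In wt saline 1, 29 genes lay below all of ko saline and 28 lay above the other 8 libraries. No share over all genes was computed for these orders of single libraries. The choice of the genes used the high libraries, so these counts are a description only. The ko saline libraries lay above all 3 wt saline libraries in 28 genes, against 19.4% of all genes tested, again by the choice of the genes.

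Foxj1, the forkhead transcription factor that switches on the motile cilium programme, lies at chr11:116330704-116335399 on the minus strand. It was at 0.173, 0.968 and 0 CPM in ko CL and 0, 0 and 0.102 CPM in wt CL. Under saline it was at 5.62, 9.81 and 8.58 CPM in ko and 4.44, 0.040 and 0.32 CPM in wt. The ko saline libraries were highest, wt saline 1 lay below them, and the other 8 libraries were below 1 CPM.

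Dnah5, Dnah9 and Dnah11 encode heavy chains of the outer dynein arms, the motors of the beat. Dnah5 (chr15:28203752-28472052, plus strand) was at 0.728, 1.9 and 0 CPM in ko CL and at 0 in each of wt CL 1 to 3. Under saline Dnah5 was at 16.2, 17.3 and 15.2 CPM in ko and 6.89, 0 and 0.356 CPM in wt. The 3 ko saline libraries were close to each other, wt saline 1 was below them, and ko CL and wt CL overlapped only at 0. Dnah11 was at 0.97, 1.27 and 0.0431 CPM in ko CL, 0 in wt CL, 15.6, 17.2 and 12.3 CPM in ko saline and 6.18, 0.040 and 0.214 CPM in wt saline. Dnah9 was at 1.25, 1.94 and 0.517 CPM in ko CL and 0.168, 0.0543 and 0 CPM in wt CL, with no overlap. Under saline Dnah9 was at 12.5, 12.5 and 7.95 CPM in ko and 5.35, 0.12 and 0.391 CPM in wt, and the same 4 libraries stood above the rest.

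Ccdc39 and Ccdc40 form the ruler that sets the spacing of dyneins and spokes along the axoneme. Ccdc39 was at 2.11, 2.94 and 2.76 CPM in ko CL and 1.17, 1.09 and 0.916 CPM in wt CL, so these groups did not overlap. It was at 10.9, 11.2 and 8.52 CPM in ko saline and 5.2, 1.32 and 2.21 CPM in wt saline. Ccdc40 had a mean of 0.809 ± 0.671 CPM in ko CL, 0.194 ± 0.101 in wt CL, 5.84 ± 0.727 in ko saline and 1.06 ± 1.46 in wt saline (SD, n = 3 each). Ccdc39 stayed at 0.916 CPM or more in every library, and in both genes ko saline and wt saline 1 were the high libraries.

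The radial spoke head genes differed among themselves. Rsph1 was at 1.28, 1.3 and 0.733 CPM in ko CL, 0.615, 0.163 and 0.356 in wt CL, 4.17, 6.33 and 4.21 in ko saline and 2.26, 0.721 and 0.498 in wt saline. Rsph4a was at 1.07, 2.44 and 1.38 CPM in ko CL, 1.17, 1.9 and 1.99 in wt CL, 7.65, 8.68 and 7.5 in ko saline and 3.84, 0.16 and 0.391 in wt saline. Rsph4a was thus higher in all CL libraries than in wt saline 2 and 3. Rsph9 was at 2.81, 1.7 and 2.24 CPM in ko CL, 1.06, 1.25 and 0.916 in wt CL, 2.83, 2.97 and 2.84 in ko saline and 2.18, 2.64 and 2.85 in wt saline. For Rsph9, wt saline 1 was the lowest of its group and wt CL was below the other 3 groups.

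Tektins are filament proteins inside the doublet microtubules. Tekt1 was at 2.77, 2.17 and 4.74 CPM in ko CL, 5.37, 4.24 and 5.09 in wt CL, 5.95, 7.8 and 4.63 in ko saline and 3.01, 1.52 and 1.92 in wt saline. All of wt CL lay above all of wt saline, whereas 28 of the 30 genes had a lower fitted level in wt CL. Tekt2 was at 2.39, 1.87 and 1.47 CPM in ko CL, 2.07, 2.12 and 1.32 in wt CL, 2.57, 3.48 and 2.14 in ko saline and 3.05, 2.8 and 2.17 in wt saline, so ko CL overlapped the other groups and wt CL lay just below both saline groups. Tekt4 was at 0.87, 0.989 and 0.766 CPM in ko saline, 0.113 CPM in wt saline 1 and 0.0668 CPM or less in the other 8 libraries. The value in wt saline 1 is 3 counts, the limit that a count of 0 allows (counting error only).

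Hydin, Ccdc153, Ak7 and Rgs22 complete the cilia genes. Hydin, a giant protein of the central pair, was at 1.28, 2.5 and 0.905 CPM in ko CL, 1.29, 2.17 and 1.07 in wt CL, 14, 12.8 and 9.92 in ko saline and 5.87, 0.761 and 0.996 in wt saline. Ccdc153, a marker of ependymal and other ciliated cells, was at 0.243, 0.935 and 0 CPM in ko CL, 0 in wt CL, 9.64, 12.3 and 8.87 in ko saline and 4.26, 0 and 0.142 in wt saline. Ccdc153 was at 0 in 5 of the 8 libraries outside the high 4, and Hydin was at 0 in none of them. Ak7, an adenylate kinase of cilia, averaged 0.614 ± 0.58 CPM in ko CL, 0.179 ± 0.115 in wt CL, 9.91 ± 2.05 in ko saline and 1.29 ± 2.02 in wt saline (SD, n = 3 each). Rgs22, a regulator of G protein signalling, averaged 0.373 ± 0.437 CPM in ko CL, 0.0876 ± 0.0563 in wt CL, 7.09 ± 1.6 in ko saline and 0.84 ± 1.39 in wt saline (SD, n = 3 each).

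**Figure D2:**
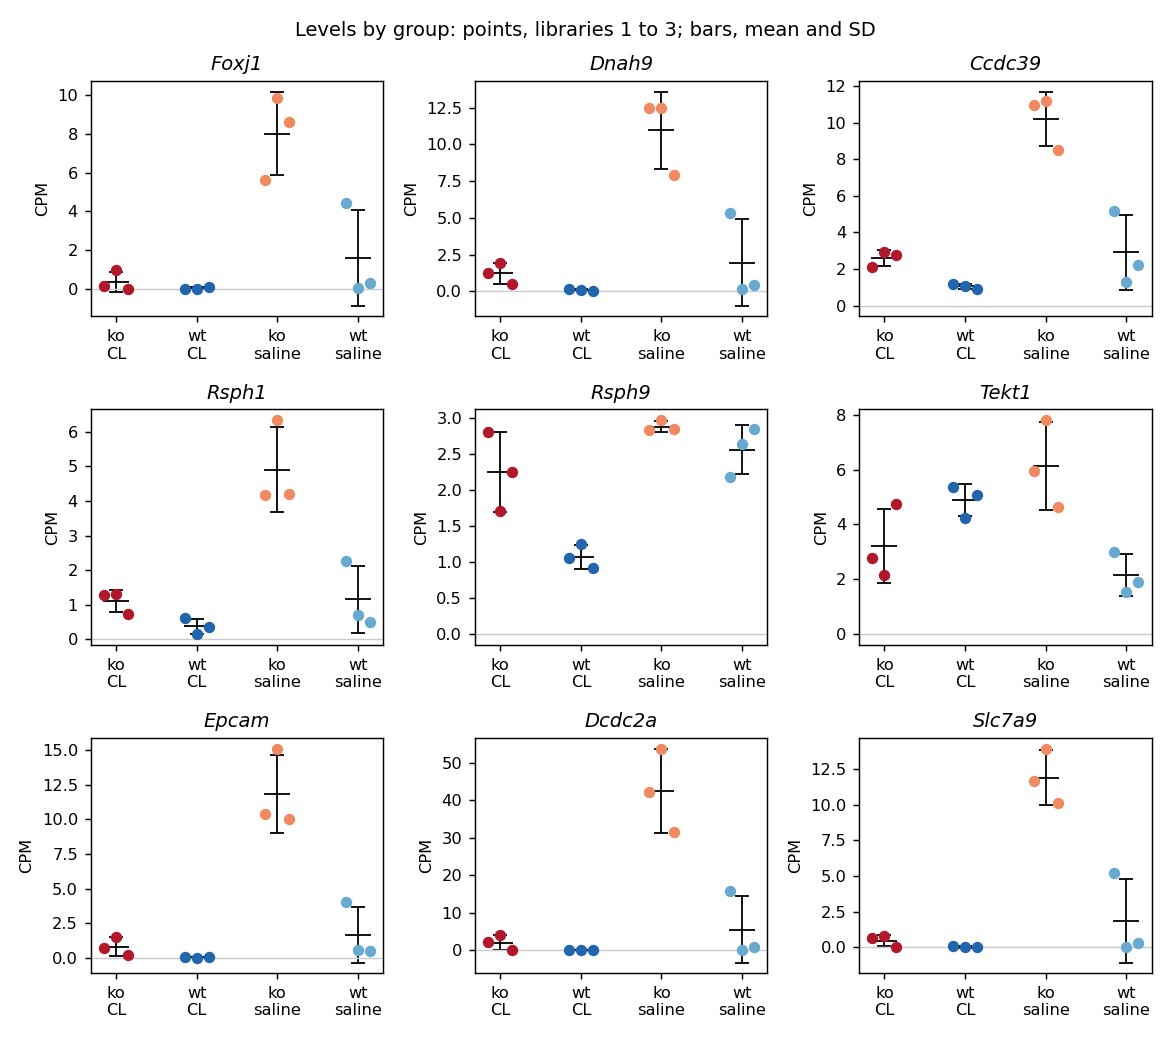
CPM of 9 of the 30 genes by group, with 1 point per library (1 to 3 from left to right) and bars for the mean and SD. In Foxj1, Dnah9, Epcam, Dcdc2a and Slc7a9 wt saline 1 is the lone high point of wt saline, whereas Rsph9 and Tekt1 do not show that pattern.

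Promoter windows of 5 of the cilia genes are shown, because genes of the motile cilium share control by RFX factors, which bind the X-box, and by forkhead factors such as Foxj1. The windows hold 250 bases before and 50 bases after a RefSeq gene start in GRCm38.p6 and are written on the gene's strand. Capitals mark GTTGCC, one arm of the X-box, or its reverse complement in Hydin, Tekt1, Ccdc153 and Tekt4, and the forkhead letters TGTTTAC in Ak7. The letters begin 13 bases before the start in Hydin (chr8:110266727-110267026, plus strand), 35 and 15 before it in Tekt1 (chr11:72361833-72362132, minus strand) and 152 before it in Ccdc153 (chr9:44240427-44240726, plus strand). They begin 8 bases past the first base in Tekt4 (chr17:25471340-25471639, plus strand) and 131 before the start in Ak7 (chr12:105705732-105706031, plus strand).
Hydin: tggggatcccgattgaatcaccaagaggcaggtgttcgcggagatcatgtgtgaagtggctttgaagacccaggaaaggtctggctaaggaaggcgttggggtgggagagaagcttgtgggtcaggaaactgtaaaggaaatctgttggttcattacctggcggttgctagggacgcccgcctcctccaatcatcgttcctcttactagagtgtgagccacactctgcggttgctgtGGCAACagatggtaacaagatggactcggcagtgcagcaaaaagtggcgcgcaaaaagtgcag
Tekt1: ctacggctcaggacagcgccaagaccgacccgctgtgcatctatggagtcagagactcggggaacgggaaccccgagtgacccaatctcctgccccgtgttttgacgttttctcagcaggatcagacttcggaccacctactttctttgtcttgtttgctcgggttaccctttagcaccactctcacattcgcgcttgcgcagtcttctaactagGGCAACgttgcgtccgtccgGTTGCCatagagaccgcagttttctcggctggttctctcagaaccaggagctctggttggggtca
Ccdc153: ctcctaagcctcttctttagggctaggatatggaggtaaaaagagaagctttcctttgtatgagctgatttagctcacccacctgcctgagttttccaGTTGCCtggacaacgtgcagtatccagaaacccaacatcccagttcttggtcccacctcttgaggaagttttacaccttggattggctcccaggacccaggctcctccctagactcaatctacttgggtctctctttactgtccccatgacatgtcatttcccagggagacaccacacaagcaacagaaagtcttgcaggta
Tekt4: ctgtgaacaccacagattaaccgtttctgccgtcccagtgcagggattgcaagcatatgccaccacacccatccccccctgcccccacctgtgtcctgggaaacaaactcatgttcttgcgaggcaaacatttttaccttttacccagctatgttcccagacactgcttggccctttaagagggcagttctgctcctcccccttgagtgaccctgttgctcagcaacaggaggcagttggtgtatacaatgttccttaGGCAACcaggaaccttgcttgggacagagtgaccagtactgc
Ak7: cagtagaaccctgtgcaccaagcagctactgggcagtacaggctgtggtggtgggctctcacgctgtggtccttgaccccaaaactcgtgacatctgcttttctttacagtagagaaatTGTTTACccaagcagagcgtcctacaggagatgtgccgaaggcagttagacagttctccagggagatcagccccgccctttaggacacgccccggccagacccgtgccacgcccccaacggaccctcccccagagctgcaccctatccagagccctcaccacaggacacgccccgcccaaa

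Of the 30 genes, 24 had a window, and the 6 with none were Foxj1, Rsph1, Rsph4a, Rgs22, Cdh16 and Dsg2. On either strand, GTTGCC was in 6 of the 15 windows of the 16 cilia genes (40.0%), in 2 of 19 windows of the epithelial genes and in 12.5% of all 32851 windows. The 6 cilia windows belong to Ccdc153, Hydin, Tekt1, Tekt2 and Tekt4, and the 2 epithelial windows to 1 gene, Slc7a9. Of 54 other genes of motile cilia, 43 had a window, and GTTGCC was in 21 of their 49 windows (42.9%). The longer GTTGCCA, which contains GTTGCC, was in 2 of 15 cilia windows (Hydin and Tekt1), in 10 of 49 windows of the other cilia genes and in 4.38% of all windows. TGTTTA was in 3 of 15 cilia windows and 5 of 19 epithelial windows, against 13.4% of all windows, and TGTTTAC, which contains it, was in 1 of each, against 3.65%. A full X-box was in 0.128% of all windows and the HNF4 letters CAAAGTCCA in 0.475%, and neither was in a window of the 30 genes. A match of letters is a description of the window and not a bound site.

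The epithelial genes were high in the same 4 libraries. Mmp7, the metalloproteinase matrilysin made by glandular epithelium (chr9:7692090-7699585, plus strand), was at 1.28, 2.81 and 0 CPM in ko CL and 0 in each wt CL library. Under saline Mmp7 was at 31.3, 40.5 and 29.1 CPM in ko and 12.5, 0 and 0.641 CPM in wt. Dcdc2a, a doublecortin-domain protein that binds ciliary microtubules (chr13:25056004-25210706, plus strand), was at 2.01, 4.01 and 0 CPM in ko CL and 0 in each wt CL library. Under saline Dcdc2a was at 42.2, 53.7 and 31.4 CPM in ko and 15.7, 0 and 0.712 CPM in wt. Both genes were thus at 0 in ko CL 3, in all of wt CL and in wt saline 2. Cdh16, a cadherin of kidney epithelium, was at 0.866, 2.34 and 0 CPM in ko CL, 0 in wt CL, 18.8, 23.9 and 15.4 in ko saline and 7.91, 0.040 and 0.605 in wt saline.

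Epcam, the epithelial cell adhesion molecule, was at 0.728, 1.54 and 0.216 CPM in ko CL and 0.112, 0 and 0.0509 CPM in wt CL, and these groups did not overlap. Under saline Epcam was at 10.4, 15.1 and 10.1 CPM in ko and 4.03, 0.56 and 0.498 CPM in wt. Prom1, a membrane glycoprotein of microvilli and other protrusions, was at 4.3, 6.34 and 0.776 CPM in ko CL, 1.4, 1.58 and 1.27 in wt CL, 35.6, 58.9 and 34.8 in ko saline and 22.3, 1.76 and 2.81 in wt saline. Prom1 was at 0.776 CPM or more in every library. Its relative Prom2 was at 3.77, 7.1 and 5.81 CPM in ko saline, 2.22 CPM in wt saline 1 and 0.534 CPM or less elsewhere. Dsg2, a desmosomal cadherin, averaged 0.509 ± 0.447 CPM in ko CL, 0.0367 ± 0.0318 in wt CL, 10.5 ± 2.47 in ko saline and 1.48 ± 2.31 in wt saline (SD, n = 3 each). Sall1, a transcription factor of kidney development, averaged 0.251 ± 0.232 CPM in ko CL, 0.0356 ± 0.0309 in wt CL, 5.58 ± 0.666 in ko saline and 0.946 ± 1.25 in wt saline (SD, n = 3 each).

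Vil1 (villin) and Ush1c (harmonin) are structural proteins of the brush border. Vil1 was at 0.693, 0.701 and 0.259 CPM in ko CL, 1.01, 1.79 and 0.916 in wt CL, 6.35, 9.48 and 7.02 in ko saline and 3.5, 0.801 and 0.89 in wt saline. It was the only epithelial gene of the 14 with all wt CL libraries above all ko CL libraries. Ush1c was at 0.139, 0.367 and 0 CPM in ko CL, 0 in wt CL, 6.45, 7.91 and 5.42 in ko saline and 2.67, 0 and 0.0356 in wt saline.

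Absorption and metabolism are represented by 4 genes. Slc9a3, the apical sodium-hydrogen exchanger of absorptive cells, was at 0.797, 0.735 and 0 CPM in ko CL, 0.0559, 0 and 0 in wt CL, 8.67, 13.8 and 8.78 in ko saline and 4.22, 0.040 and 0.427 in wt saline. Slc7a9, which takes up cystine and basic amino acids, was at 0.624, 0.768 and 0 CPM in ko CL, 0.112, 0 and 0 in wt CL, 11.6, 13.9 and 10.1 in ko saline and 5.23, 0 and 0.32 in wt saline. Both separated ko saline and wt saline 1 from the other 8 libraries, which were below 1 CPM. Dao, a D-amino acid oxidase, averaged 0.717 ± 0.625 CPM in ko CL, 0.0362 ± 0.0627 in wt CL, 13.1 ± 2.73 in ko saline and 1.89 ± 2.88 in wt saline (SD, n = 3 each). Bbox1, the last enzyme of carnitine synthesis, averaged 0.288 ± 0.208 CPM in ko CL, 0.0893 ± 0.0307 in wt CL, 6.13 ± 0.994 in ko saline and 0.939 ± 1.37 in wt saline (SD, n = 3 each).

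Per kilobase of exon, the mean level in ko saline was highest for Mmp7, at 31.5 CPM per kb. Prom1 followed at 6.01, Epcam at 5.39, Dcdc2a at 5.12, Cdh16 at 5.12 and Ccdc153 at 5.05 CPM per kb. The longest genes were low on that scale, with Dnah5 and Dnah11 each at 1.04, Dnah9 at 0.688 and Hydin at 0.678 CPM per kb, and Tekt4 was the lowest at 0.438 CPM per kb. Foxj1 was at 3.05 CPM per kb. Exon length is that of all annotated exons, which can exceed the transcript used.

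Most of the genes stood at a similar percentage in wt saline 1, when each gene's level was set against its own mean in ko saline. The median was 41.9% over the 30 genes (quartiles 39.8% and 48.3%), 47.5% over the 16 cilia genes (12.9% in Tekt4 to 112% in Tekt2) and 40.5% over the 14 epithelial genes (34.0% in Epcam to 51.7% in Prom1). In wt saline 2 and 3 the medians over the 30 were 0.608% and 3.78%. Among ko CL libraries they were 5.86% in ko CL 1, 11.9% in ko CL 2 and 0.774% in ko CL 3, and among wt CL libraries 0.943%, 0.533% and 0.671%. In ko saline 2 the epithelial genes had a median of 124% and the cilia genes 114%, against 91.0% and 98.8% in ko saline 1 and 84.9% and 84.7% in ko saline 3.

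**Figure D3:**
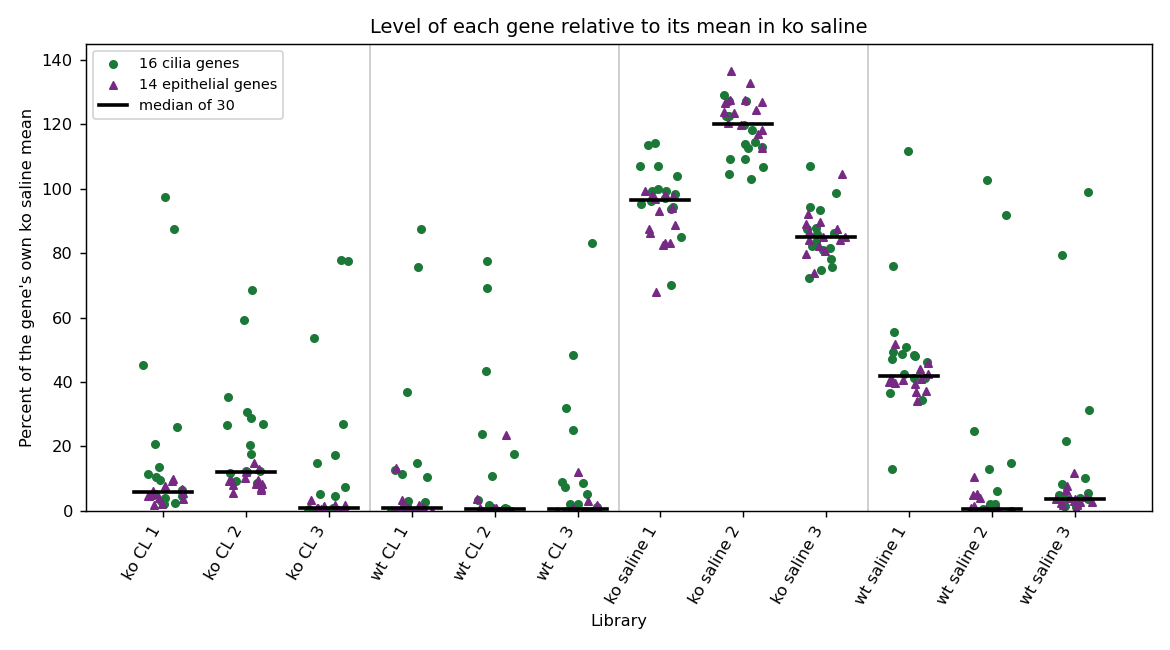
Level of each of the 30 genes in each library as a percentage of that gene's mean in ko saline, with circles for 16 cilia genes, triangles for 14 epithelial genes and a bar for the median of the 30. The epithelial genes form a tight group near 40.5% in wt saline 1 and lie near 0 in wt saline 2, while a few cilia genes stay high in every library.

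The difference of ko CL and wt CL was not used to choose the genes and was tested. Of the 30 genes, 5 were higher in ko CL and 0 were lower (edgeR's quasi-likelihood test, Benjamini-Hochberg adjusted p under 0.05 over all genes tested), while 27.6% of all genes tested were higher, 29.3% lower and 56.8% called in either direction. In this fit of all 12 libraries the count is not above that background. DESeq2 called 10 higher and 0 lower, and at an unadjusted edgeR p under 0.05 there were 5 higher and 0 lower. The share of all genes was not computed for either of these settings. The fold change was positive in 27 and negative in 3, with a median log2 fold change of 3.19, against 0.00 over all genes tested, and the 3 negative ones were Rsph4a, Tekt1 and Vil1 (Rsph4a was positive, at 0.34, when counts were scaled by library size alone). All 3 ko CL libraries lay above all 3 wt CL libraries in 6 of the 30, against 30.9% of all genes tested.

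The 5 genes called were Rsph9, Ccdc39, Rsph1, Dnah9 and Epcam. Rsph9 averaged 2.25 ± 0.552 CPM in ko CL and 1.08 ± 0.167 CPM in wt CL (SD, n = 3 each), a log2 fold change of 1.06 ± 0.23 (SE, adjusted p = 0.00159, edgeR). Ccdc39 differed by 1.30 ± 0.42 (adjusted p = 0.0176), Rsph1 by 1.56 ± 0.59 (adjusted p = 0.0394), Epcam by 3.87 ± 1.40 (adjusted p = 0.0305) and Dnah9 by 4.04 ± 1.56 (adjusted p = 0.0412) on the log2 scale, all higher in 3 of 3 ko CL libraries than in any wt CL library. Rsph9 kept its call without any 1 library. The call was lost without ko CL 2 in Ccdc39 (adjusted p = 0.0508), Rsph1 (0.0945), Epcam (0.122) and Dnah9 (0.111), and without wt CL 3 it was lost in the same 4 (0.0627, 0.1, 0.0826 and 0.121). Not called were Vil1 (-1.13 ± 0.59, adjusted p = 0.12), Tekt1 (-0.61 ± 0.31, adjusted p = 0.104) and Hydin (0.08 ± 0.68, adjusted p = 0.932). The count of calls was 3 without ko CL 1, 1 without ko CL 2, and 3, 2 and 1 without wt CL 1, 2 and 3. Without wt saline 1, which is in neither group but enters the shared estimate of the spread, it was 20 higher and 1 lower. The share of all genes called was not computed for the fits that leave out a library, so these counts have no background.

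In wt CL 8 of the 30 genes had 0 counts in all 3 libraries, so their fitted fold change has no fixed size. Against a limit of 3 counts over the whole wt CL group, Dcdc2a was at least 40.5-fold higher in ko CL over the group, Mmp7 at least 27.5-fold, Cdh16 at least 21.6-fold, Dnah5 at least 17.7-fold and Dnah11 at least 15.2-fold. Ccdc153 was at least 7.96-fold higher and Ush1c at least 3.41-fold higher, and Tekt4, with 3 counts in ko CL, gave no fold. These limits cover counting error in wt CL only and not the spread among the ko CL pools. The library ko CL 3 was itself at 0 in Dcdc2a, Mmp7, Cdh16 and Dnah5. The edgeR test called 0 of these 8, also at an unadjusted p under 0.05, with adjusted p-values of 0.105 (Cdh16) to 0.273 (Ush1c), and DESeq2 called 5. These values come from ko CL 1 and 2 in the main: ko CL 2 was the highest ko CL library in 26 of the 30 genes and ko CL 3 the lowest in 26. Of the 30, 27 were higher in ko CL 2 than in any wt CL library, 26 in ko CL 1 and 6 in ko CL 3. Shares over all genes were not computed for these orders of single libraries, so the counts are a description only.

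Under CL against saline, and in ko against wt under saline, the direction follows from the choice of the genes. The median log2 fold change of the 30 was -4.13 in ko CL against ko saline (all 30 negative, -5.16 to -0.35) and -4.62 in wt CL against wt saline (28 negative). It was 2.69 in ko saline against wt saline, with wt saline 1 included (all 30 positive, 0.03 to 3.99). Over all genes tested the median was -0.01 in each of these comparisons, and edgeR called 54.6%, 36.8% and 14.4% of them in the same order. These comparisons share the ko saline and wt saline libraries with each other, so they are not separate evidence. The wt CL against wt saline value includes wt saline 1, with a summed level of 156 CPM, against 14.8 to 16.8 CPM in wt CL. In wt saline 2, 10 of the 30 were at 0 counts and the sum was 13.9 CPM, below all of wt CL. In wt saline 3, 0 of the 30 were at 0 counts and the sum was 21.6 CPM, above all of wt CL. A median of the 30 without wt saline 1 is not given here.

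Other genes of motile cilia, from a list of 54 that leaves out the 30, gave the same picture in part. Their summed level was 131, 131 and 97.9 CPM in ko CL, 97.8, 94.8 and 93.3 in wt CL, 369, 424 and 331 in ko saline and 218, 118 and 114 in wt saline. Again ko saline was highest and wt saline 1 stood above wt saline 2 and 3, though the other 8 libraries kept more of the sum. In 43 of the 54 the high 4 libraries all lay above the other 8, an order found in 5.26% of all genes tested, in a list chosen with the data known. Tekt3 was the 1 gene that did not pass the filter, which left 53 tested.

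In ko saline against wt saline 41 of the 53 were higher and 0 lower, where 7.99% of all genes tested were higher and 6.45% lower, with a median log2 fold change of 2.19. Of the 53, 16 reached the level of the low-count filter only with ko saline counted, so their direction follows in part from passing it; of the other 37, 29 were higher. The list was chosen with results of these data known, and its counts are a description. Among the smallest adjusted p-values were those of Cfap126 (1.34 ± 0.13, adjusted p = 6.6e-05), Wdr78 (0.99 ± 0.14, adjusted p = 0.00105) and Enkur (2.02 ± 0.30, adjusted p = 0.00128), by edgeR's test and on the log2 scale with the SE. Cfap126 was at 13, 13.5 and 11.9 CPM in ko saline and 5.76, 4.6 and 4.8 CPM in wt saline, and Enkur at 5.33, 7.29 and 5.04 CPM in ko saline and 2.18, 1.08 and 1.07 CPM in wt saline. In both, the groups did not overlap and wt saline 1 was the highest of wt saline. The count was 47 without wt saline 1 (median 3.34), but 16 and 14 without wt saline 2 and 3, and 18, 16 and 25 without ko saline 1, 2 and 3. Dnah7a and Dnah7b, and Rsph3a and Rsph3b, are near copies of each other, so reads may be shared between them or lost.

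In ko CL against ko saline 49 of the 53 were lower and 0 higher (27.5% of all genes tested were lower, 27.2% higher), with a median log2 fold change of -2.65. Against ko saline, the direction of the 16 genes that needed ko saline to reach the filter follows in part from passing it. No count without them was made for ko CL against ko saline. In wt CL against wt saline 21 were lower and 1 higher (17.1% and 19.6% of all genes tested), with a median of -1.46. The 1 higher gene was Ropn1l, an axonemal protein also known from the sperm tail, at 6.04, 6.95 and 6.41 CPM in wt CL and 2.82, 3.76 and 3.42 CPM in wt saline. Without wt saline 1 only 4 were lower (median -0.38), and without wt CL 1, 2 or 3 the count was 6, 5 or 4. In ko CL against wt CL 10 were higher and 4 lower (median 1.18), with library size alone 16 and 0, and without wt saline 1 22 were higher. The 10 are 18.9% of the list, below the 27.6% of all genes tested that were higher, and the 4 are 7.55%, below the 29.3% that were lower. Capsl was the gene with the smallest adjusted p there, at 1.28, 0.935 and 0.69 CPM in ko CL and 0.0559, 0.217 and 0.102 CPM in wt CL (2.91, adjusted p = 8.7e-05, edgeR; chosen after its values were seen). Ccdc114, Cfap54, Ropn1l and Rsph3a were the 4 lower in ko CL.

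**Figure D4:**
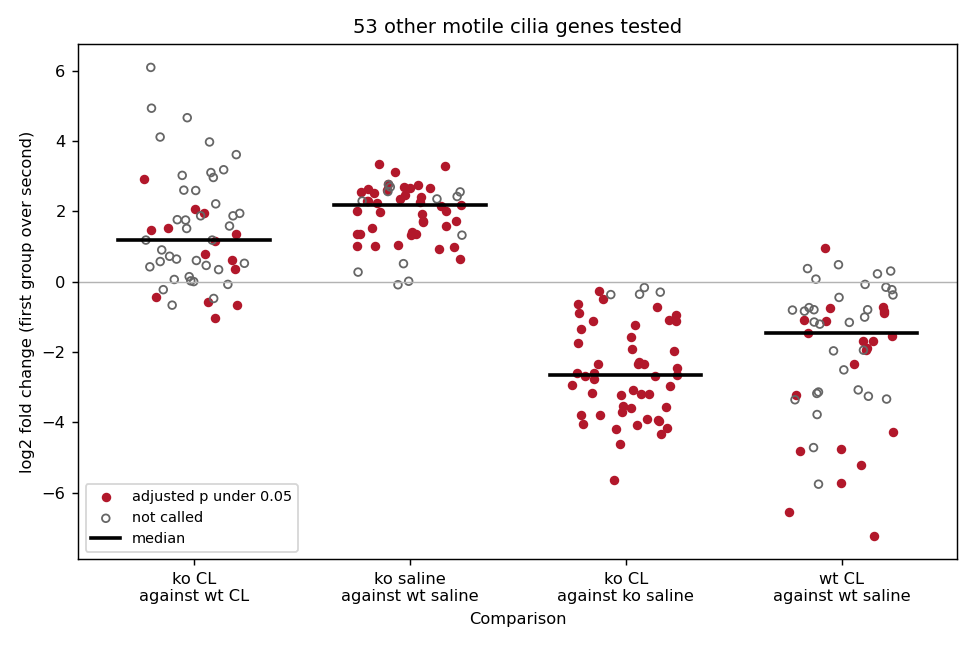
Log2 fold change of each of 53 other motile cilia genes in 4 comparisons, filled where the adjusted p was under 0.05 (edgeR), with a bar for the median. Of the 53, 41 are higher in ko saline against wt saline and 49 lower in ko CL against ko saline, while in ko CL against wt CL 10 are higher and 4 lower (16 and 0 with library size alone). Of the 53, 16 reached the low-count filter only with ko saline counted.

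Regulators of multiciliation moved in part. Of 10, 7 passed the filter, and Myb (2.09 ± 0.53, adjusted p = 0.0209), Trp73 (2.59 ± 0.66, adjusted p = 0.0211) and Deup1 (1.5 ± 0.41, adjusted p = 0.0285) were higher in ko saline than in wt saline on the log2 scale (edgeR), where 7.99% of all genes tested were higher. Of the 7, 2 reached the filter only with ko saline counted, and the list was chosen with results of these data known. Myb and Trp73 are transcription factors of multiciliated cells, and Deup1 helps to multiply their basal bodies. Deup1 was at 0.798, 1.03 and 0.989 CPM in ko saline and 0.527, 0.28 and 0.178 CPM in wt saline. It was at 0.797, 0.534 and 0.604 CPM in ko CL and 0.447, 0.706 and 1.12 CPM in wt CL. Its highest library was thus wt CL 3, unlike the order of the 30 genes. Without wt saline 3 the adjusted p was 0.089 for Myb, 0.0913 for Trp73 and 0.121 for Deup1, and without ko saline 2 it was 0.0842, 0.0778 and 0.0908. Gmnc, which starts the programme, was at 2.83, 1.61 and 1.47 CPM in ko saline and 1.05, 0.0801 and 0.0356 CPM in wt saline. Mcidas, its relative, was at 0.181 CPM or less in ko saline and at 0 in the other 9 libraries, and Foxn4 was above 0 in 1 library. Ccno and Cdc20b were at 1.05 CPM or less. Rfx2 and Rfx3, the X-box factors, were at 11.1 to 13.3 and 9.08 to 10.1 CPM in ko saline and 9.96 to 11.4 and 7.87 to 8.9 CPM in wt saline, and neither was called there.

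Of 20 general epithelial genes, 17 were tested, and 9 were higher and 0 lower in ko saline than in wt saline (median 1.24), where 7.99% of all genes tested were higher. Of the 17, 6 reached the filter only with ko saline counted, and of the other 11, 7 were higher. This list, too, was chosen with results of these data known, and its counts are a description. Spint2, a protease inhibitor, was at 12.7, 15.7 and 14.8 CPM in ko saline and 9.0, 7.77 and 7.01 CPM in wt saline (0.86 ± 0.12, adjusted p = 0.00107, edgeR). Krt8, a keratin of simple epithelium, was at 17.9, 27.8 and 22.3 CPM in ko saline and 12.7, 10.05 and 8.18 CPM in wt saline (1.14 ± 0.28, adjusted p = 0.0177). The tight junction genes Cldn10 (0.91 ± 0.14, adjusted p = 0.00165) and Cldn7 (3.30 ± 0.74, adjusted p = 0.0125) were also higher. Without ko saline 2 the adjusted p was 0.0799 for Krt8 and 0.0531 for Cldn7, and without wt saline 2 it was 0.0564 and 0.0509. In ko CL against ko saline 13 were lower (27.5% of all genes tested) and in wt CL against wt saline 8 were lower (17.1% of all). Against ko saline, the direction of the 6 genes that needed ko saline to reach the filter follows in part from passing it. The CL groups differed in 2 genes, higher in ko CL than in wt CL, Cldn10 and Krt19 (4 without wt saline 1), a share of 11.8% that is below the 27.6% of all genes. The saline count was 12 without wt saline 1 and 2 or 3 without ko saline 2, wt saline 2 or wt saline 3.

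Of 19 brush border and absorptive transport genes, 18 were tested, and 5 were higher and 0 lower in ko saline than in wt saline (median 0.54), where 7.99% of all genes tested were higher. Of the 18, 3 reached the filter only with ko saline counted, and of the other 15, 4 were higher. Here as well the list was chosen with results of these data known, and its counts are a description. Lrp2, the endocytic receptor megalin, was at 74.4, 82 and 64.8 CPM in ko saline and 40.3, 18.6 and 24 CPM in wt saline (1.41 ± 0.26, adjusted p = 0.00416, edgeR). Ggt1, an ectoenzyme of glutathione breakdown, was at 12, 17.8 and 13.4 CPM in ko saline and 6.36, 0.36 and 0.641 CPM in wt saline (2.55 ± 0.74, adjusted p = 0.0373), and DESeq2 did not call it (adjusted p = 0.0974). Espn (1.09 ± 0.33, adjusted p = 0.0435), Myo7b (1.93 ± 0.59, adjusted p = 0.0455) and Cdhr5 (2.51 ± 0.77, adjusted p = 0.0467) are proteins of microvilli and were higher too. The count was 1 or 2 without any 1 of the wt CL libraries, the ko saline libraries, wt saline 2 or wt saline 3. In ko CL against ko saline 13 were lower and 3 higher (Anpep, Slc9a3r1 and Eps8), against 27.5% and 27.2% of all genes. For the genes that needed ko saline to reach the filter, the direction here follows in part from passing it. Anpep, the aminopeptidase N that macrophages and fibroblasts also carry, was at 573, 380.2 and 458 CPM in ko CL and 41.5, 45.1 and 44.2 CPM in ko saline. In wt CL against wt saline 12 were lower (7 without any 1 of the wt CL libraries), against 17.1% of all genes. Between ko CL and wt CL, 5 were higher in ko CL and 2 (Aqp1 and Slc4a4) lower, with 9 higher without wt saline 1. Those 5 are 27.8% of the list, near the 27.6% of all genes that were higher, and the 2 are fewer than the 29.3% of all genes that were lower.

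The 10 transcription factors of ducts and nephric tissue include Pax2, Pax8, Hnf4a, Lhx1, Emx2, Gata3 and Mecom. Emx2 was higher in ko saline than in wt saline (1.45 ± 0.33, adjusted p = 0.0126, edgeR), at 2.21, 3.0 and 2.74 CPM in ko saline and 1.54, 0.60 and 0.747 CPM in wt saline. The call was lost without ko saline 2, wt saline 2 or wt saline 3 (adjusted p = 0.05 to 0.062). Pax8 was at 0.416, 0.902 and 0 CPM in ko CL, 0, 0 and 0.0509 in wt CL, 7.72, 9.01 and 5.39 in ko saline and 3.46, 0.040 and 0.0356 in wt saline. Hnf4a was at 9.83, 11.9 and 8.81 CPM in ko saline and 5.38, 0 and 0.463 CPM in wt saline, and Pax2 at 0.906, 0.659 and 0.511 CPM in ko saline, 0.339 CPM in wt saline 1 and 0 in the other 8 libraries. In 7 of the 10 the high 4 libraries all lay above the other 8, an order found in 5.26% of all genes tested. This list was chosen with the data known, so the count is a description. All 10 were lower in ko CL than in ko saline by edgeR and 7 by DESeq2, against 27.5% of all genes by edgeR. Of the 10, 4 reached the low-count filter only with ko saline counted, so their direction follows in part from passing it. Between ko CL and wt CL, 0 were higher in ko CL (1 at an unadjusted p under 0.05, and 0 by DESeq2) and 2 were lower, against 27.6% and 29.3% of all genes.

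The label of a duct beside the fat was set against markers of male and female reproductive organs and of kidney. Of 18 epididymis genes, 17 were below 1 CPM in all 12 libraries and 8, among them Lcn5, Lcn9, Lcn10, Crisp4 and Gpx5, had 0 counts throughout. The exception was Adam7, at 0, 2.07 and 0 CPM in ko CL, 0 in wt CL, 0, 4.8 and 5.23 CPM in ko saline and 3.01, 0 and 0 CPM in wt saline (named after its values were seen). Adam7 was therefore at 0 in ko saline 1, where the 30 genes summed to 338 CPM. The summed epididymis level was 0.45 to 2.6 CPM in ko CL, 0.153 to 0.598 in wt CL, 0.435 to 5.75 in ko saline and 0.463 to 3.35 in wt saline. The defining markers of the epididymis were therefore absent or near 0 apart from Adam7, and the genes are not named here for a duct.

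Of 10 testis genes, 9 were below 1 CPM in all libraries and 4 (Prm1, Tnp1, Tnp2 and Insl3) were at 0 throughout; Sycp3 was at 2.95 to 9.87 CPM in ko CL, 16.2 to 26.9 in wt CL, 2.74 to 6.49 in ko saline and 7.73 to 8.54 in wt saline. All 10 kidney genes were below 1 CPM, and Slc12a1, Slc22a6 and Kap were at 0 throughout. Umod, a kidney tubule protein, was at 0.58, 0.476 and 0.415 CPM in ko saline, 0.264 CPM in wt saline 1 and 0.0668 CPM or less elsewhere. The kidney sum was highest in the same 4 libraries at a low level, at 1.12, 1.65 and 1.12 CPM in ko saline and 1.28 CPM in wt saline 1. It was 0.601 CPM or less in the other 8 libraries. Unlike the sum of the 30 genes, it was higher in wt saline 1 than in ko saline 1 and 3. In 2 of the 10 genes (Umod and Slc34a1) the high 4 libraries lay above the rest. Of 3 oviduct and uterus genes, Ovgp1 was at 0.565 to 1.32 CPM with no order like that of the 30, and of 9 ovary genes 8 were below 1 CPM. Oviduct, uterus and ovary are female organs, whereas Ddx3y and Xist were at male levels in every library. The presence of adjoining tissue in the pads was not tested.

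Mesothelial cells cover the fat pad and share keratins with other epithelia. The 8 mesothelial genes summed to 249.6, 196 and 189 CPM in ko CL, 177, 148 and 169 in wt CL, 271, 239 and 379 in ko saline and 322, 398 and 366 in wt saline. The sum was not highest in the libraries where the 30 genes were highest, and edgeR called 0 of the 8 in ko saline against wt saline, as did DESeq2, with 1 lower at an unadjusted p under 0.05. Of the 8 adipocyte genes, 5 were lower and 0 higher in ko saline than in wt saline, against 6.45% and 7.99% of all genes tested, Retn by -1.49, Cidec by -1.03, Lipe by -0.93 and Plin1 by -0.90 on the log2 scale (adjusted p = 0.000179 to 0.00643, edgeR). The mesothelial and adipocyte lists were also chosen with results of these data known. The adipocyte sum in wt saline 1 was 22227 CPM, against 23746 and 24394 CPM in wt saline 2 and 3. The part of the adipocyte share in the levels of the 30 genes was not tested.

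**Figure D5:**
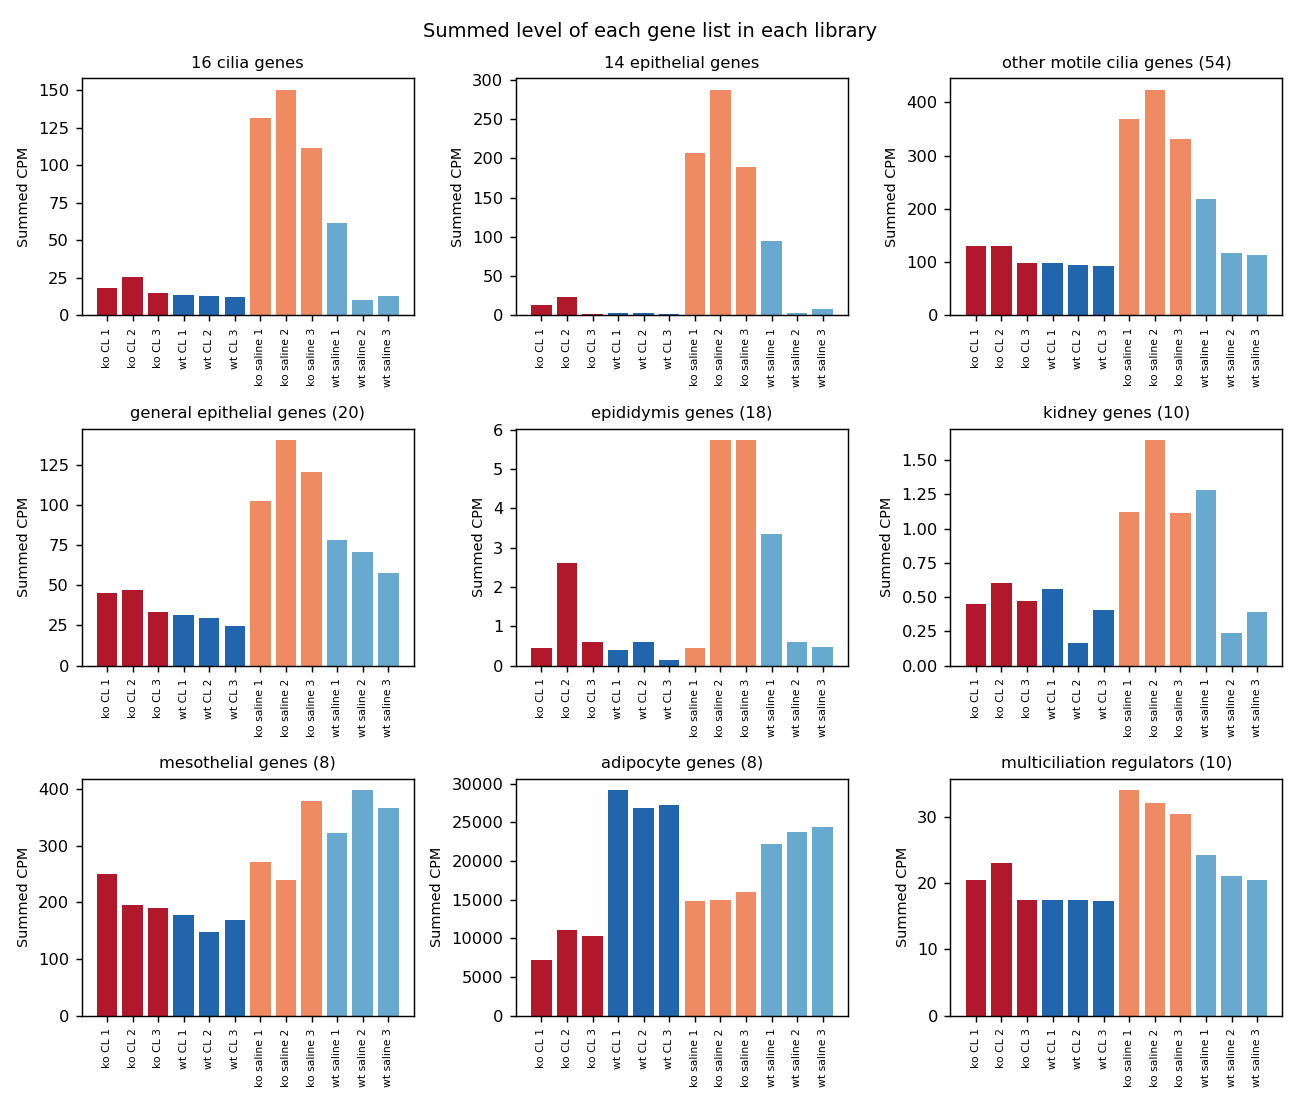
Summed CPM of 9 gene lists in each of the 12 libraries, 1 bar per library, with its own axis from 0 in each panel. Both sets of the 30 genes, the other motile cilia genes and the general epithelial genes are highest in ko saline, the mesothelial sum is not, and the epididymis and kidney sums stay under 6 CPM, with the kidney sum highest in ko saline and wt saline 1.

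Genes of most like pattern were ranked over the 12 libraries by the lowest CPM among ko saline 1 to 3 and wt saline 1 over the highest CPM among the other 8, with 0.1 CPM added to both. Of 12897 genes with a mean of at least 2 CPM in ko saline, 179 had a ratio of at least 2 and 39 of at least 4, of which 21 and 10 are among the 30 (29 of the 30 passed that mean). Among the first 15 outside the 30 were C230072F16Rik, Aqp4, Spag6l, Kndc1, Entpd8, Slc27a2, Gm12576, Cfap44, Tmem212, Tmem132b, Srd5a2, Tm4sf4, Cfap65 and Hnf4a, with ratios of 6.37 to 4.69. Spag6l, Cfap44 and Cfap65 are axonemal genes, Aqp4 is a water channel and Srd5a2 a steroid reductase. Cfap65 was at 22.5, 25.2 and 19.7 CPM in ko saline, 10.8 CPM in wt saline 1 and 2.20 CPM or less elsewhere. Slc27a2, a fatty acid transport protein, was at 7.36, 9.52 and 6.22 CPM in ko saline, 5.12 CPM in wt saline 1 and 0.854 CPM or less elsewhere.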

How the data were processed

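The authors deposited raw counts per Ensembl gene for 12 libraries, made with STAR and HTSeq on GRCm38 per the submitters' processing notes; their versions and the annotation they used were not given, and per the file names reads were counted on the reverse strand. Of 53379 identifiers, 53274 matched GENCODE M21 and 105 did not. Summary lines, 12.5% to 17.2% of the reads counted, were left out. HTSeq leaves out reads that match several places or genes. Counts were analysed in R 4.3.3 with edgeR 4.0.16: filterByExpr with a minimum count of 10 kept 16554 genes, TMM scaled library sizes, and 1 quasi-likelihood model held all 12 libraries with 4 group means and 8 residual degrees of freedom (common biological coefficient of variation 11.5%). Benjamini-Hochberg adjustment ran over all genes tested, with calls at 0.05. The test was tested on simulated counts. The SE was derived from the F statistic (size of the log2 fold change divided by root F) and is approximate near 0 counts. CPM are TMM-scaled.

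The 30 genes and all lists were chosen with earlier results of these data known. All 30 were described; of each other list up to 4 genes with the smallest adjusted p in ko saline against wt saline, any gene of a list of 10 or fewer, and defining markers at 0 were named, and other genes are marked as chosen after their values were seen or stand in a count of 5 or fewer. Alternatives were DESeq2 1.42.0, RLE size factors, library size alone, no filter, a replicate block and leaving out each library. Depth gives a limit of 0.0957 to 0.168 CPM for a count of 0 (3 counts, counting error only). Nothing in the labels marks a batch. Some genes of the lists are not reported here.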

Additional observations from a re-analysis of the deposited data

How the results depend on the processing

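Counts below are genes called by edgeR in the direction named in the report. Shares of all genes called were computed for the main fit alone. In ko CL against wt CL, the 30 genes gave 10 with DESeq2, 12 without the filter and 5 with RLE size factors, library size alone or the replicate block; all 5 main calls were among them. The other motile cilia genes gave 16 with library size alone in that comparison (0 lower), general epithelial genes 6 with library size alone and 4 with the replicate block, and brush border genes 8 with library size alone. In ko saline against wt saline, brush border genes gave 3 with DESeq2, 9 with library size alone and 8 without the filter. Library size alone moved the median of all genes to 0.39 in ko CL against wt CL, 0.15 in ko saline against wt saline, -0.10 in ko CL against ko saline and -0.33 in wt CL against wt saline (log2), and the cause of single changes was not tested.

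Leaving out each library in turn, the 30 genes ranged over 1 to 20. In the order ko CL against wt CL, ko saline against wt saline, ko CL against ko saline and wt CL against wt saline, other motile cilia genes ranged over 8 to 22, 14 to 47, 44 to 50 and 4 to 28, general epithelial genes over 2 to 4, 2 to 12, 13 to 14 and 7 to 9, and brush border genes over 5 to 9, 1 to 7, 11 to 14 and 7 to 13. Rsph9 was called in each of the 12. Rsph4a ranged over -0.47 to 0.18 and changed sign, to 0.34 with library size alone and to 0.18, 0.04, 0.04 and 0.09 without ko CL 1, ko CL 3, wt CL 2 and wt CL 3; Tekt2 ranged over -0.13 to 0.20, with -0.13 without ko CL 1 or wt CL 3; Hydin ranged over -0.45 to 0.43, with -0.45, -0.02 and -0.13 without ko CL 2, wt CL 1 and wt CL 3.

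Same-numbered libraries did not deviate together (r of -0.355 to 0.176 over 18 pairs, 2 above 0.1), so the numbers do not pair them; with the replicate block the other motile cilia genes gave 9, 42, 48 and 17 calls. Wt saline 1 held 43.4% of the ko saline mean of the summed 30 genes, 39.7% by library size alone and 43.2% with RLE. For the lists, DESeq2 and unadjusted edgeR p-values also gave 0 where edgeR gave 0 lower in ko saline against wt saline, except 1 brush border, 1 mesothelial and 1 testis gene (Sycp3) at an unadjusted p under 0.05. Deup1 lost its call with the replicate block (adjusted p = 0.0509). With 3 pools a group and counts near 0 in most libraries, depth limits differences among the low 8 libraries.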
